A study of Saccharomyces cerevisiae with 12 samples.

Results

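The comparison described here set RNA of budding yeast kept in doxycycline for 10 h against RNA of the same strain without the drug. The strain, GRB2405 (CML128 HCM1-3HA::natMX4), carries a triple HA tag on HCM1 at its own promoter, so that doxycycline has no tet promoter to act on. Its parent CML128 is a MATa strain with mutations in the URA3, HIS4, LEU2 and TRP1 genes. Both channels came from exponential cultures in the rich medium YPD at 30 °C, and the labels give an A600 of 0.5 for treated and untreated cells alike. The labels state neither the dose of doxycycline nor how many clones of the strain were used. The members are the open reading frames (ORFs) with a value on both dye-swapped arrays of this comparison, 2312 of the 6174 in the table (37.4%), with 505 ORFs measured on 1 of the 2 arrays and 3357 on neither. The series, on the forkhead transcription factor Hcm1, holds 12 arrays in 6 comparisons, and its text calls this one a control. Beside it is used the same strain after 4 h of doxycycline over none. Strain MJRC07 (GRB2405 tetO7-HCM1-3HA::kanMX4, below the tet strain), in which doxycycline shuts HCM1 off, is used after 10 h of doxycycline over none. The remaining comparisons, all without the drug, enter in places. They are the tagged strain over wild type, the tet strain over the tagged strain, and an HCM1 deletion over wild type.

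Doxycycline is a tetracycline, a class of antibiotics that block translation on bacterial and mitochondrial ribosomes, and in yeast it is used to switch genes placed behind a tet promoter. Budding yeast tunes a large part of its transcription to growth: fast growth goes with high expression of ribosomal protein and ribosome assembly genes. Slow growth, nutrient exhaustion and stress go with the genes that the activators Msn2 and Msn4 turn on, which code for chaperones, catalase and the enzymes of the reserve sugars trehalose and glycogen.

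Values are log2 ratios of 10 h of doxycycline over none, each array centred on its own median, and a gene's value is the mean of the 2 arrays with their SD (n = 2). The series text has every RNA sample dye-swapped. The 2 arrays are therefore read as 1 pair of RNA samples measured in each dye orientation, and the SD as the spread between these arrays. As RNA came from whole cultures, a change in every cell and a change in a portion of the cells cannot be told apart. The 2 arrays gave the same sign for 1655 ORFs (71.6%) and the median SD of an ORF was 0.29. Across the ORFs Pearson's r between the arrays was 0.71 and Spearman's rho 0.63, on ORFs that share the same RNA and are not independent replicates. The middle of the distribution ran between -0.42 and 0.42 at its quartiles, and the SD of the ORF values was 0.77, against 0.51 for the 4 h comparison over the 1970 ORFs measured in both.

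An ORF counted as called when it lay at least 2-fold from the median on both arrays. By this rule 65 ORFs (2.81% of 2312) were higher and 154 (6.66%) lower after 10 h of doxycycline. The counts called within each list below are to be read against these shares. At 4-fold the counts were 4 higher and 40 lower, and at 8-fold 0 higher and 6 lower, so the lower side had the longer tail. The count rests on both arrays: array 1 alone had 259 ORFs at least 2-fold higher and 257 lower, and array 2 alone 123 higher and 224 lower. Since 1 RNA pair gives no spread between cultures, limma was run with the residual of other comparisons, each taken as no change. These were the 4 h comparison and 1 column of the tagged strain over wild type. The 4 h comparison holds changes of its own: of 1970 ORFs 26 were at least 2-fold higher on both its arrays and 29 lower. The residual is therefore not the spread between cultures, and the p-values from this fit do not measure that spread. By limma's moderated test 178 of 1644 testable ORFs (10.8%) passed at an adjusted p of 0.05, 87 higher and 91 lower, and 365 had an unadjusted p below 0.05. The 2 columns of the tagged over wild type comparison mirror each other (r = -0.999, SD of their sum 0.014). Their average is thus close to 0 and measures no spread. The count past limma depends on the residual. It was 100 without the tagged over wild type comparison, 356 without the 4 h comparison, and 10 when the 2 mirrored columns of the tagged over wild type comparison were averaged. Taking the 2 arrays as replicates gave 859 of 2312, and 1368 with the replicate number, which is the dye orientation, as a block. The standard error was close to one size for every ORF, 0.39 to 0.52 on the log2 scale, and the smallest mean log2 ratio to pass was 1.11 in size. The test used the mean of the same 2 arrays as the calls, and any ORF called has a mean of at least 1 in size. Its passes therefore add no support to the calls. The same holds for every limma count and adjusted p given below, which amount to a cut on the size of the mean.

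**Figure D1:**
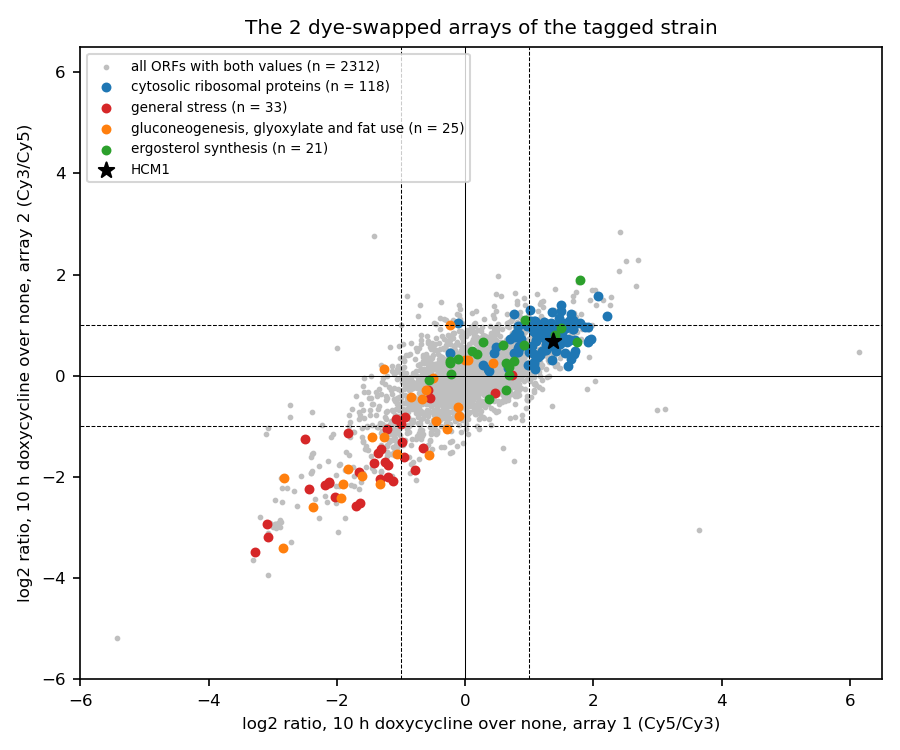
Log2 ratio of 10 h of doxycycline over none on array 2 (vertical axis) against array 1 (horizontal axis) for all 2312 ORFs in grey, with 4 gene lists in colour and HCM1 as a star. Dashed lines mark 2-fold. Of the ribosomal protein genes 116 of 118 lie above 0 on both arrays, and of the general stress genes 31 of 33 lie below 0 on both.

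HCM1 itself, a forkhead gene of the cell cycle that here keeps its own promoter, had log2 ratios of 1.37 on array 1 and 0.68 on array 2 (mean 1.02, SD 0.49). Both arrays put it above 0, and array 1 alone past 2-fold. In the 4 h comparison it was measured on array 2 only, at 0.50, so it could not be tested. In the tet strain after 10 h of doxycycline HCM1 was at -5.79 and -5.51. Of the other cell cycle regulators, YOX1, a repressor of early cell cycle genes, had ratios of 1.13 and 1.62 and was 2.59-fold higher. The forkhead gene FKH1 had 0.87 and 0.89. PLM2, a gene with a forkhead-associated domain, had -0.38 on each array. Of the 19 regulators listed 6 had both values, and their median was 0.65 with 1 called higher and 0 lower.

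The lowest ORF of all was YFH1, the gene of frataxin, which serves iron-sulphur cluster assembly in mitochondria. It had log2 ratios of -5.43 and -5.18, a 39.6-fold lower value. On the single 4 h array with a value it stood at -6.36, while in the tet strain it stood at -0.22 and -0.17 after 10 h. The low ratio thus appeared on every measured array of the tagged strain in doxycycline and on neither array of the tet strain in doxycycline. The tet strain over the tagged strain, both without the drug, gave 0.05 and 0.05. In the tagged strain over wild type YFH1 was at 0.50 in the first column and -0.50 in the second, which mirrors the first throughout (r = -0.999). Of the neighbouring ORFs, YDL121C had -0.03 and -0.43 after 10 h, and YDL119C had no value on either array.

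After YFH1, the lowest ORF with a gene name was FMP45 by its mean (-3.50). FDH1, a formate dehydrogenase, had -3.31 and -3.65, against -2.04 and -2.14 after 4 h. GRE1, a stress-induced hydrophilin, had -3.27 and -3.49, against -3.85 and -3.72 after 4 h. These genes were low at both times on every array. NQM1, a transaldolase, was 8.56-fold lower after 10 h (-3.08 and -3.11) and had -0.68 and -0.98 after 4 h. BAG7 was 7.91-fold lower (-2.95 and -3.02) and had -0.26 and 0.06 after 4 h. DIP5, the permease for glutamate and aspartate, was 7.71-fold lower (-2.90 and -3.00) and had 0.22 and -0.29 after 4 h. For NQM1, BAG7 and DIP5 both 10 h arrays lay more than 2 log2 units below both 4 h arrays. Both BAG7 (adjusted p = 4.3e-09) and DIP5 (adjusted p = 5.34e-09) passed limma's test, which read the same means and adds no support.

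Among the 20 lowest were also 7 ORFs with no gene symbol in the table used for names: YMR051C, YAR010C, YML045W, YMR046C, YJR026W, YJR028W and YML040W. They lay between -2.99 and -2.88 as means, and 6 of the 7 share an annotated length of 1323 bases. Over all 12 arrays their values differed from those of YMR051C by 0.05 to 0.09 log2 units on average, so that they amount to close to 1 value and not to 7. NOP12, a pre-rRNA processing gene (-2.87 and -2.90), followed YMR051C with a mean distance of 0.21. So did NUP53, a nuclear pore gene (-2.63 and -2.58, mean distance 0.28), AVO2, a TORC2 subunit gene (-2.96 and -2.45, mean distance 0.30), YCL020W (0.33) and DML1 (0.37). This likeness was noticed after the values had been seen, and whether the probes of these genes share sequence with YMR051C was not tested, so their ratios may not be those of their own transcripts. It touches the ribosome biogenesis and nuclear pore lists, each of which holds 1 of these genes, and without all ORFs within 0.4 of YMR051C the count of ORFs at least 2-fold lower was 142.

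**Figure D2:**
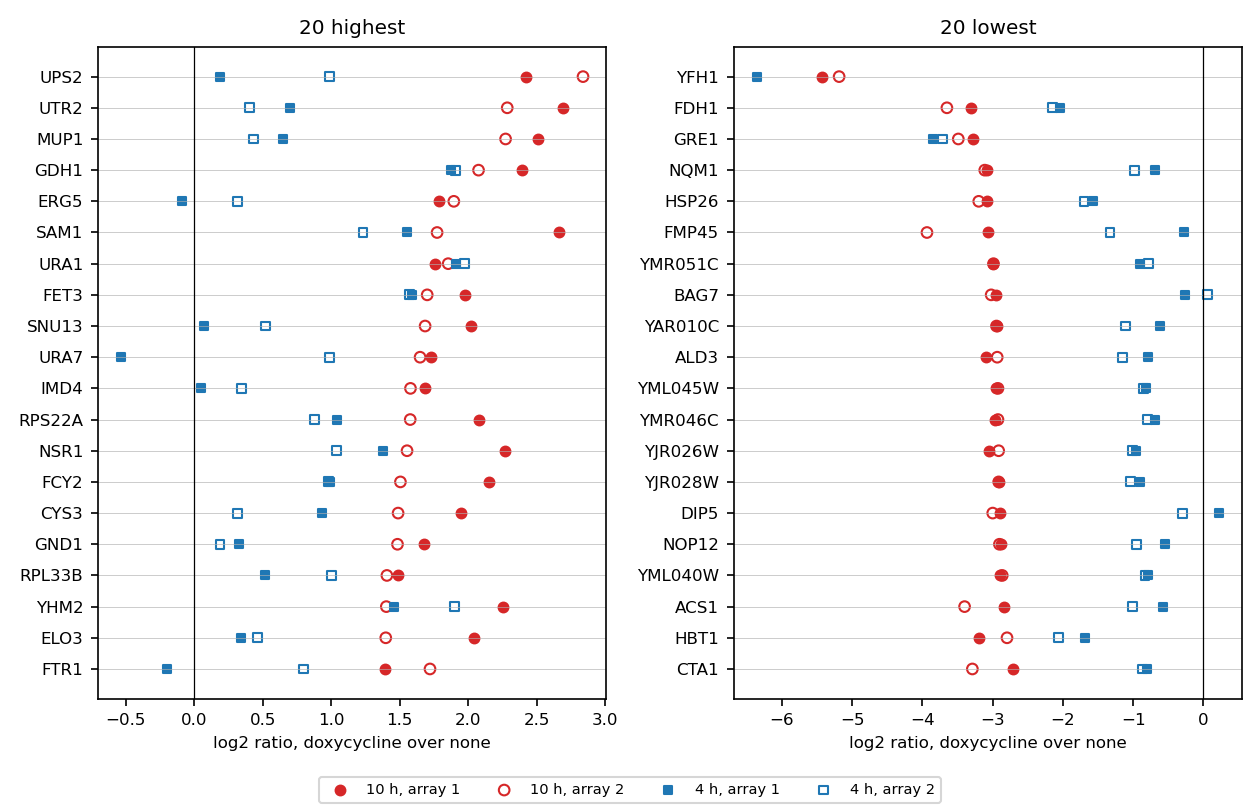
The 20 highest (left) and 20 lowest (right) ORFs of the 10 h comparison, ranked by the smaller of the 2 array ratios in size. The horizontal axis is the log2 ratio of doxycycline over none, red circles are the 10 h arrays and blue squares the 4 h arrays of the same strain. YFH1, GRE1 and FDH1 were low at both times, whereas BAG7 and DIP5 were near 0 after 4 h.

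The general stress genes were lower as a group. Of 33 with both values, 31 lay below 0 on both arrays and 22 were called lower with 0 called higher, where 6.66% of all ORFs were called lower. Their median log2 ratio was -1.49 (-1.31 on array 1 and -1.73 on array 2), against a median of 0.01 over all ORFs. By limma 13 of the 18 testable members passed, all of them lower, which is a cut on the same means and no added support. HSP26, a small heat shock protein, had -3.08 and -3.20, an 8.82-fold lower value. ALD3, a stress-induced aldehyde dehydrogenase, was 8.08-fold lower with -3.10 and -2.93. CTT1, the cytosolic catalase, was 4.64-fold lower with -2.04 and -2.39 (adjusted p = 2.8e-05, limma). For each of the 3 genes both arrays were past 4-fold. RTN2, a reticulon of the endoplasmic reticulum, was 5.06-fold lower with -2.43 and -2.25. HSP12, a membrane-binding small heat shock protein, was 2.99-fold lower with -1.43 and -1.73. Of the genes of the activators, MSN2 had 0.73 and 0.01. MSN4 was below 0 on both arrays but short of 2-fold, with -0.55 and -0.43.

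Trehalose and glycogen genes were low too. Of 13 with both values 11 lay below 0 on both arrays, 7 were called lower and 0 higher, and the median was -1.21. TPS2, which removes the phosphate in the last step of trehalose synthesis, had -2.12 and -2.11, a 4.33-fold lower value (adjusted p = 3.42e-05, limma). TPS1, the first enzyme of that pathway, had -1.21 and -1.77. GSY1, a glycogen synthase, had -1.98 and -1.76, GAC1, a targeting subunit of the phosphatase that activates glycogen synthase, had -2.37 and -1.52, and PGM2, the main phosphoglucomutase, had -1.65 and -1.91. All 5 were past 2-fold on both arrays. PGM1, the minor phosphoglucomutase, had a mean of 0.68 and was on the other side. General stress and this list share 4 ORFs, so their counts overlap. Together with the heat shock chaperones below, the lists hold 60 different ORFs, of which 28 were called lower.

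Heat shock chaperones had a median of -0.39 over 22 ORFs, with 6 called lower and 0 higher, and 4 of the 22 also belong to the general stress list. Without those 4 the median of the other 18 was -0.32, with 2 called lower, where 6.66% of all ORFs were called lower. HSP104, the disaggregase, had -2.51 and -1.25 and was 3.68-fold lower (adjusted p = 0.000244, limma). STI1, a co-chaperone of Hsp90 and Hsp70, had -1.46 and -1.82, and HSP42, a small heat shock protein, -1.25 and -1.71. The cytosolic Hsp70 gene SSA1 had a mean of -0.42 and the Hsp90 gene HSC82 one of -0.27, both short of 2-fold. SSB2, the Hsp70 that sits on ribosomes, had a mean of 0.90. Oxidative defence genes had a median of -0.25 over 23 ORFs (-0.09 on array 1 and -0.23 on array 2) with 3 called lower, and these 3 were catalases and a peroxidase: CTA1, the peroxisomal catalase (-2.71 and -3.29), CTT1, and GPX1, a glutathione peroxidase (-1.36 and -1.53). The thioredoxin peroxidase AHP1 had -0.24 and -1.32, so its arrays disagreed.

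**Figure D3:**
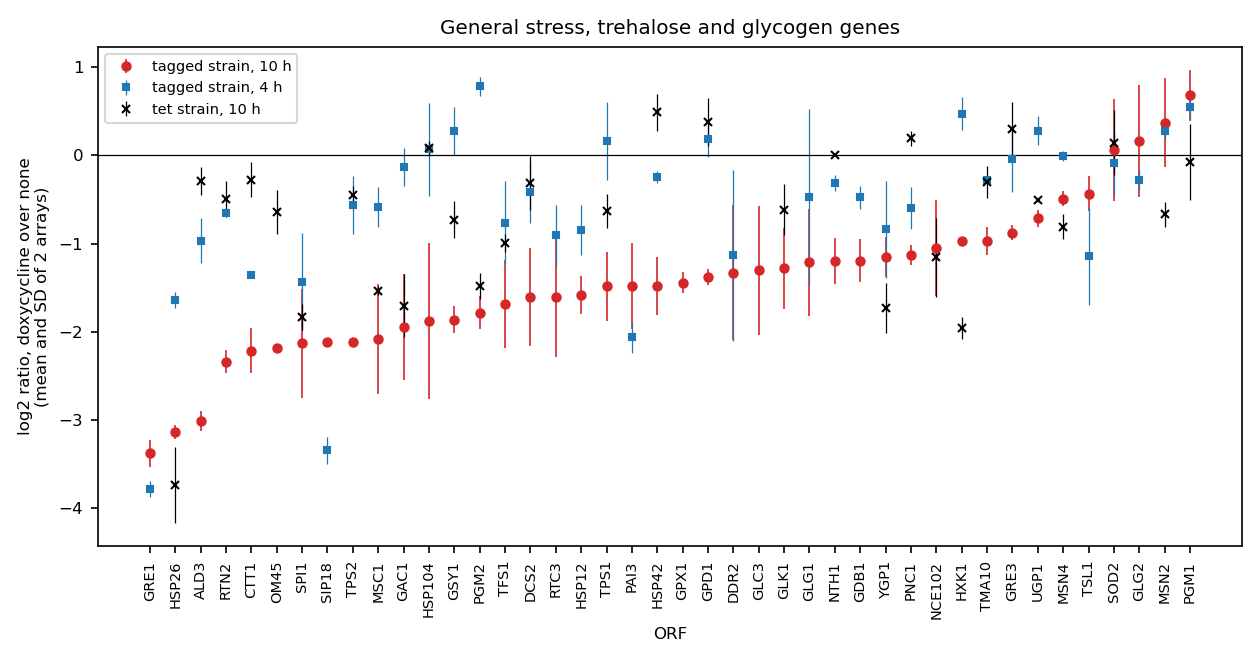
Mean log2 ratio of doxycycline over none for the 42 ORFs of the general stress and the trehalose and glycogen lists with both 10 h values, ordered by the 10 h value. Bars are the SD of 2 arrays, red circles the tagged strain after 10 h, blue squares the same strain after 4 h, and black crosses the tet strain after 10 h. Most 10 h values lie below the 4 h values, while GRE1 and SIP18 were lower still after 4 h.

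Of the genes for gluconeogenesis, the glyoxylate cycle and the use of fats and other poor carbon sources, 25 had both values. Of these, 20 lay below 0 on both arrays, 11 were called lower and 0 higher, against 6.66% lower among all ORFs, and the median was -0.67 (-0.84 on array 1 and -1.05 on array 2). ACS1, an acetyl-CoA synthetase, was 8.70-fold lower with -2.84 and -3.40. ADY2, an acetate transporter, was 5.60-fold lower with -2.37 and -2.60. The genes of peroxisomal fatty acid oxidation POX1 (-2.82 and -2.03) and POT1 (-1.94 and -2.43) were 5.38-fold and 4.55-fold lower. The arrays put all 4 past 3-fold. MDH2, the cytosolic malate dehydrogenase of gluconeogenesis and the glyoxylate cycle, had a mean of -1.30 (adjusted p = 0.0188, limma). The gluconeogenic genes PCK1 and FBP1 had means of -0.67 and -0.45, and the glyoxylate cycle genes ICL1 and MLS1 means of -0.57 and -0.45, and these 4 were short of 2-fold. Of the hexose transporters HXT5, the transporter of non-growing cells, was 5.03-fold lower (-2.16 and -2.50) and HXT2, a high-affinity transporter, 2.27-fold lower (-1.01 and -1.36). HXT3 had a mean of 0.57 and HXT7 one of 0.44.

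Glycolysis and fermentation gave a median of -0.21 over 26 ORFs, but 0.13 on array 1 and -0.59 on array 2, so its side is not settled. GPD1, the glycerol-3-phosphate dehydrogenase of glycerol synthesis, was 2.60-fold lower (-1.31 and -1.44), and PFK26, which makes the allosteric activator of phosphofructokinase, 3.05-fold lower (-2.07 and -1.15). ADH1, the main fermentative alcohol dehydrogenase, had -0.82 and -1.70. HXK2, the hexokinase of glucose-grown cells, had 1.46 and 0.95, whereas GLK1, the glucokinase, had -0.96 and -1.61.

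After 10 h the medians of mitochondrial gene groups lay close to the median of all ORFs. The 41 genes of the mitochondrial ribosome, on which tetracyclines act, had a median of 0.23 (0.25 on array 1 and 0.11 on array 2) with 0 called in either direction, 19 above and 6 below 0 on both arrays. RSM26, a small-subunit protein gene, had 0.98 and 0.97, and MRPL3, a large-subunit one, 0.79 and 0.67. The 36 nuclear genes of the respiratory chain and ATP synthase had a median of 0.21. NDE2, an external NADH dehydrogenase, was 5.81-fold lower (-2.27 and -2.80), and its paralogue NDE1 had 0.81 and 0.91. CYC1, the main cytochrome c gene, had 0.85 and 1.26. Of the 8 genes listed as encoded in mitochondria 0 were found among the 6174 ORFs of the series, so they have no values. The citric acid cycle had a median of 0.11 over 14 ORFs, 0.17 on array 1 and -0.00445 on array 2, so its side is not settled. Of its genes CIT3, a minor citrate synthase, was 6.37-fold lower (-2.85 and -2.49) and KGD1, an oxoglutarate dehydrogenase subunit, 2.59-fold lower, while IDH2, an isocitrate dehydrogenase subunit, had 0.93 and 0.87. Mitochondrial chaperones, import and protease genes had a median of 0.06 over 23 ORFs, -0.06 on array 1 and 0.13 on array 2, with 0 called. HSP78, a matrix chaperone, had -1.22 and -0.44. After 4 h the mitochondrial ribosome had a median of 0.48, against 0.11 over all shared ORFs, and 33 of 34 means were above 0. The other 4 h medians were 0.24 for the respiratory chain (32 ORFs), 0.40 for the citric acid cycle (10) and 0.37 for mitochondrial chaperones (21). Both 10 h arrays lay below both 4 h arrays for 15 of the 34 mitochondrial ribosome genes, against 29.7% of all ORFs. This difference was not tested.

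Only 4 genes of the retrograde response, by which yeast reports impaired mitochondria to the nucleus, had both values. CIT2, the peroxisomal citrate synthase that is the standard readout of that response, had -1.81 and -1.56 (adjusted p = 0.00117, limma), against 0.88 and 0.18 after 4 h. Both 10 h arrays were below 0 and both 4 h arrays above it. ATO3, an ammonium transporter, had -1.66 and -2.24, RTG2, a regulator of the response, -0.85 and -0.06, and PYC1, a pyruvate carboxylase, 1.03 and 0.64.

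Ribosomal protein genes formed the largest group on the higher side. Of the 118 cytosolic ribosomal protein genes with both values, all 118 had a mean above 0 and 116 lay above 0 on both arrays. Their median log2 ratio was 1.05 (1.26 on array 1 and 0.81 on array 2), and the range of means was 0.11 to 1.83. Of them 21 were called higher and 0 lower, where 2.81% of all ORFs were called higher. Array 1 alone put 93 past 2-fold and array 2 alone 24, so the call, unlike the direction, turned on array 2. By limma 35 of the 99 testable members passed, all of them higher, again a cut on the same means and no added support. The 72 proteins of the large subunit and the 46 of the small subunit were alike, with medians of 1.05 and 1.09. RPS22A, the highest, had 2.07 and 1.58, against 1.04 and 0.88 after 4 h, and was 3.54-fold higher after 10 h. RPS28B had 2.20 and 1.17, RPL33B 1.49 and 1.41, and RPL37B 1.66 and 1.23. RPL27A, the lowest, had a mean of 0.11, with -0.23 on array 1. Many of these genes are near-identical pairs whose transcripts an array probe may not tell apart, so the 118 are not separate measurements.

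The other lists of protein synthesis had medians between 0.29 and 0.53. The 22 ribosome biogenesis genes with both values, of 77 listed, had a median of 0.53 (0.42 on array 1 and 0.91 on array 2), with 3 called higher and 2 lower. NSR1, a nucleolin-like protein, was 3.76-fold higher (2.27 and 1.55), SNU13, a protein of box C/D and spliceosomal particles that is on no list, 3.61-fold (2.02 and 1.68), and NOP58, a core protein of box C/D particles, 2.23-fold (1.22 and 1.09). NOP1, the methylase of the same particles, was 2.34-fold lower (-1.08 and -1.37), and NOP12 is described above. Translation factors had a median of 0.50 over 30 ORFs, with 25 above 0 on both arrays and 1 called higher, YEF3, the fungal elongation factor (1.51 and 1.01). YEF3 was not testable by limma. Of the 25 testable members 0 passed, but no ORF with a mean below 1.11 in size passed that test. The aminoacyl-tRNA synthetases had a median of 0.29 over 22 ORFs and 3 called higher, where 2.81% of all ORFs were. These 3 were MES1 for methionine (1.21 and 1.48), KRS1 for lysine (1.39 and 1.29) and WRS1 for tryptophan (1.16 and 1.42). Subunits of RNA polymerases I and III had a median of 0.38 over 10 ORFs and 0 called. Their means ran from -0.47 to 0.93, all smaller in size than the smallest to pass limma's test, 1.11. That 0 of the 7 testable passed therefore adds nothing.

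**Figure D4:**
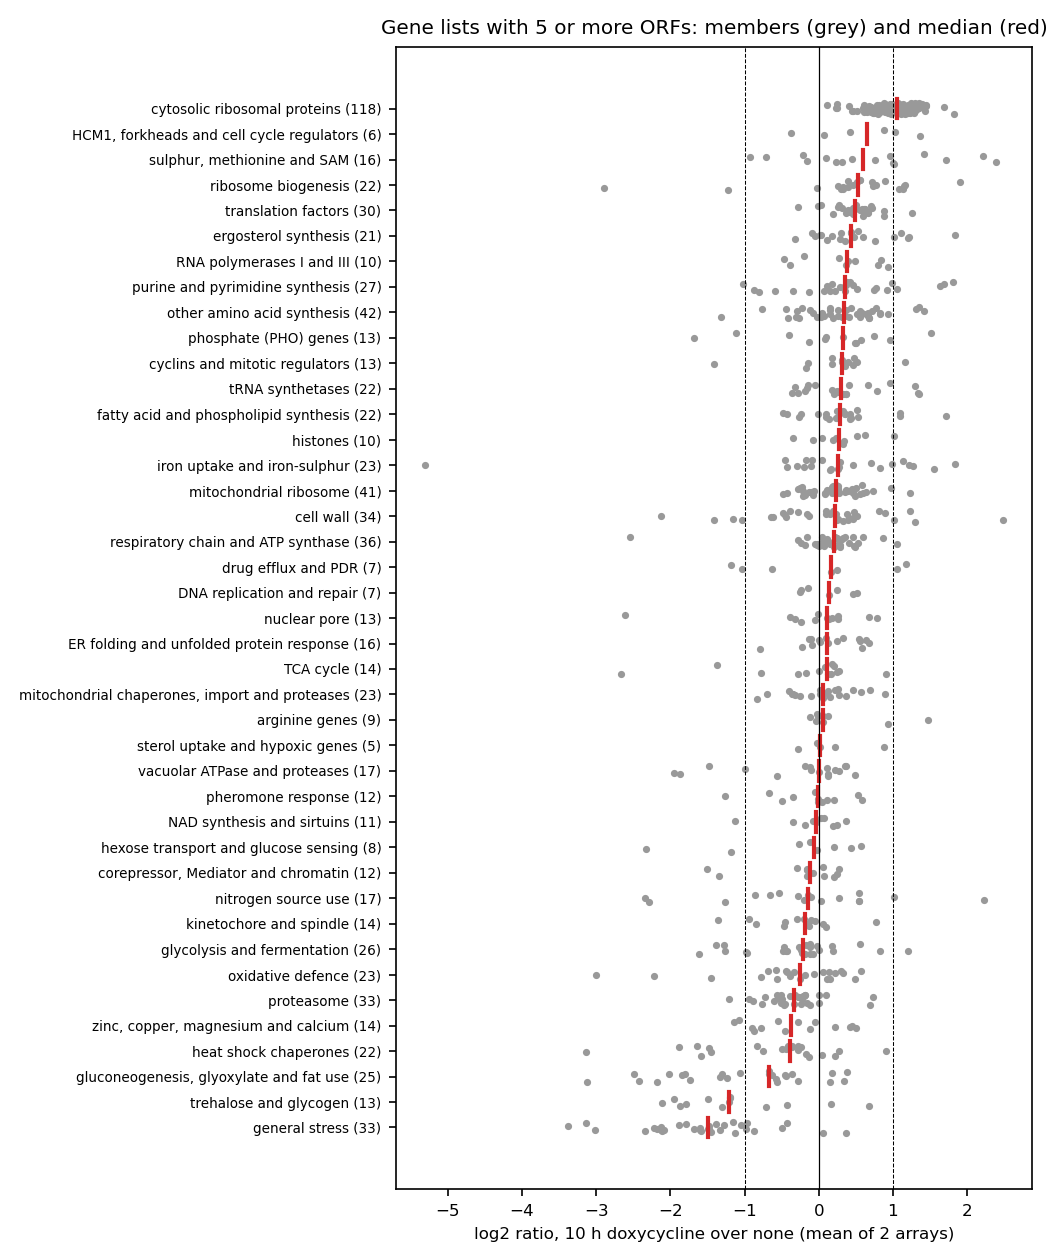
Mean log2 ratio of 10 h of doxycycline over none for each ORF (grey points) of the 41 gene lists with at least 5 measured ORFs, with the list median in red and the number of ORFs in brackets. Dashed lines mark 2-fold. Ribosomal protein genes stand at the top with a median of 1.05 and general stress genes at the bottom with -1.49.

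Several biosynthetic routes had single genes among the 20 highest. In ergosterol synthesis, the yeast counterpart of cholesterol synthesis, the median of 21 ORFs was 0.43 and 14 lay above 0 on both arrays. The members furthest above 0 were ERG5, the sterol desaturase (1.78 and 1.89, adjusted p = 0.000329 by limma), ERG3 (mean 1.22, SD 0.39), ERG2 (1.75 and 0.67), ERG4 (1.40 and 0.81) and ERG11, the target of azole drugs (0.93 and 1.10). ERG5 alone was past 2-fold on both arrays. It had -0.09 and 0.32 after 4 h. Of the fatty acid elongases ELO3 was 3.30-fold higher (2.04 and 1.40), ELO2 2.13-fold (1.18 and 1.01), and ELO1 had 1.46 and 0.74. UPS2, which acts in mitochondrial phospholipid metabolism, was the highest of the ORFs called, at 6.18-fold, with 2.42 and 2.84 after 10 h against 0.19 and 0.99 after 4 h.

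Sulphur amino acid genes had a median of 0.60 over 16 ORFs, with 3 called higher. MUP1, the high-affinity methionine permease, was 5.24-fold higher (2.51 and 2.27, adjusted p = 1.8e-06 by limma), SAM1, an S-adenosylmethionine synthetase, 4.64-fold (2.66 and 1.77), and CYS3, a cystathionine lyase, 3.28-fold (1.94 and 1.49). SAM2, the other synthetase, had 1.04 and 0.98. MUP1 had only 0.65 and 0.43 after 4 h, while SAM1 had 1.55 and 1.23. In nucleotide synthesis 3 of 27 ORFs were called higher, where 2.81% of all ORFs were, and the median was 0.35. URA1, the dihydroorotate dehydrogenase, had 1.76 and 1.85, URA7, the main CTP synthase, 1.73 and 1.65, and IMD4, an IMP dehydrogenase, 1.69 and 1.58. URA8, the minor CTP synthase, had -0.90 and -1.13. FCY2, the purine and cytosine permease, was 3.55-fold higher.

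Nitrogen genes went both ways. GDH1, which fixes ammonium into glutamate, was 4.70-fold higher (2.39 and 2.07) and stood at 1.87 and 1.91 after 4 h. PUT4, the proline permease, was 5.09-fold lower (-1.88 and -2.81), PUT1, the proline oxidase, 2.39-fold lower (-1.07 and -1.45), and CHA1, the serine and threonine deaminase, 4.87-fold lower (-2.18 and -2.38). The list's median was -0.15 over 17 ORFs (-0.15 on array 1 and -0.24 on array 2). Of the other amino acid genes ILV1, a threonine deaminase of isoleucine synthesis, was 2.56-fold higher, ARG1, the argininosuccinate synthetase, 2.77-fold higher, and HOM3, the aspartate kinase, 2.48-fold higher, whereas BAT2, the cytosolic branched-chain aminotransferase, was 2.49-fold lower. Of the 42 in that list, which leaves out arginine, 31 had a mean above 0, against 1180 of all 2312 ORFs.

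Iron uptake genes included the high-affinity pair. FET3, the multicopper ferroxidase, had 1.97 and 1.70, against 1.59 and 1.57 after 4 h. FTR1, the permease that works with it, had 1.39 and 1.72, against -0.20 and 0.80 after 4 h. SIT1, a siderophore transporter, had 1.46 and 1.07 and was the third called higher among 23 ORFs. Among all ORFs 2.81% were called higher. The ferric reductase gene FRE1 had 0.92 and 1.53. In the tet strain after 10 h FET3 was at 0.65 and 0.94 and FTR1 at 0.67 and 0.82, also above 0 on both arrays. The list's median was 0.26 (0.39 on array 1 and 0.03 on array 2), and its 1 member called lower was YFH1, described above. Of 13 phosphate genes (median 0.33) 1 was called higher, PHO3, an acid phosphatase, at 2.85-fold (1.80 and 1.22). The 2 called lower were PHM7, at 3.22-fold (-1.86 and -1.51), and PHO89, a sodium-phosphate cotransporter, at 2.16-fold (-1.11 and -1.12). Zinc, copper, magnesium and calcium genes had a median of -0.37 over 14 ORFs (-0.16 on array 1 and -0.31 on array 2), with RCN2, a calcineurin regulator, the single one called (-1.10 and -1.19).

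Genes of cell division were measured thinly. Of 75 kinetochore and spindle genes listed 14 had both values, with a median of -0.18 (-0.06 on array 1 and -0.42 on array 2) and 1 called lower, NUD1 of the spindle pole body (mean -1.36, SD 0.20). NDC80, an outer kinetochore gene, had -0.72 and -1.16, and SPC24, of the same complex, 0.99 and 0.55. Cyclins and mitotic regulators had a median of 0.31 over 13 ORFs (0.18 on array 1 and 0.26 on array 2). CLN2, a G1 cyclin, was 2.25-fold higher (1.02 and 1.32), and MIH1, the phosphatase that activates Cdc28, 2.67-fold lower (-1.73 and -1.11). All 10 histone genes were measured, with a median of 0.28 (0.37 on array 1 and 0.14 on array 2) and 0 called, and HTB2, an H2B gene, was the highest at 0.89 and 1.14. DNA replication and repair genes had a median of 0.14 over 7 of 62 listed (0.08 on array 1 and 0.10 on array 2), again with 0 called.

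Proteasome genes lay a little below the other ORFs. Of 33 measured 29 had a mean below 0 and 20 lay below 0 on both arrays, but 0 were called, and the median was -0.33 (-0.52 on array 1 and -0.19 on array 2). CDC48, the ATPase that unfolds ubiquitylated proteins, had -1.58 and -0.84 and was the 1 member to pass limma's test (adjusted p = 0.0331). RPN2, a regulatory particle subunit, had -1.10 and -0.78, and PRE3, a core subunit, 1.00 and 0.46. In the vacuole PRB1, protease B, was 3.64-fold lower (-1.62 and -2.11), CPS1, a carboxypeptidase, 3.87-fold lower (-1.73 and -2.17), and PAI3, an inhibitor of protease A, 2.80-fold lower (-1.83 and -1.14), beside a list median of 0.01 over 17 ORFs. In the cell wall UTR2, a chitin transglycosylase, was 5.60-fold higher (2.69 and 2.28, adjusted p = 5.15e-07 by limma), and SPI1, a wall protein induced by stress, 4.38-fold lower (-1.70 and -2.57). The wall list's median lay on different sides of 0 on the 2 arrays, 0.35 on array 1 and -0.17 on array 2. Among regulators CYC8, a general corepressor, was 2.84-fold lower (-1.80 and -1.20) and SSN3, the Mediator kinase, 2.53-fold lower (-1.12 and -1.56). Both were lower still after 4 h, CYC8 at -2.61 and -1.83 and SSN3 at -2.08 and -3.00. In the tet strain after 10 h both were above 0, CYC8 at 2.27 and 2.94 and SSN3 at 1.22 and 1.86. The remaining lists had medians of 0.29 for fatty acid and phospholipid synthesis (22 ORFs), 0.16 for drug efflux (7), 0.12 for the nuclear pore (13), 0.11 for ER folding (16), 0.06 for arginine genes (9) and 0.02 for sterol uptake (5). They were -0.02 for pheromone response (12 ORFs), -0.03 for NAD synthesis (11), -0.07 for hexose transport (8) and -0.12 for corepressors and chromatin (12). Drug efflux, the nuclear pore, sterol uptake, NAD synthesis, hexose transport and corepressors lay on different sides of 0 on the 2 arrays.

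Markers of other cell types gave few values. Of 7 markers of a cells and 4 of alpha cells 0 had both values, so the mating type could not be checked on these arrays. Of 20 genes of meiosis and sporulation 3 had both values: IME1, the inducer of meiosis, at -2.23 and -0.98, SPS2 at -0.44 and -0.57, and SPS4 at -0.02 and 0.33. None of the 4 auxotrophic and strain-marker genes had both values.

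In all, 113 of the 219 called ORFs fell on one of the 47 lists, 48 of the 65 higher and 65 of the 154 lower, where 862 of all 2312 ORFs were on a list. The 17 called higher outside the lists included GND1 of the pentose phosphate pathway (1.68 and 1.48) and YHM2, a mitochondrial carrier of citrate and oxoglutarate (2.26 and 1.40). BDH2, a dehydrogenase gene that is 1 of the 89 called lower outside them, had -2.67 and -2.27 and was 5.56-fold lower.

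The 4 h comparison of the same strain, which also has untreated tagged-strain RNA below the line, is given beside these values and is not independent of them. Of the 58 ORFs called higher after 10 h with both 4 h values, 52 were above 0 on both 4 h arrays, 1 was below on both and 10 were past 2-fold, with a 4 h median of 0.60. Of all 1970 ORFs 43.6% were above 0 on both 4 h arrays and 24.7% below. Of the 131 called lower, 101 were below 0 on both 4 h arrays, 17 above on both and 19 past 2-fold, with a 4 h median of -0.56. The 4 h median over all shared ORFs was 0.11. Both 10 h arrays lay at least 1 log2 unit above both 4 h arrays for 11 ORFs and below them for 72. Taking any gap, both 10 h arrays lay below both 4 h arrays for 29.7% of the 1970 ORFs, for 19 of 29 general stress genes, 13 of 20 heat shock chaperones and 14 of 21 genes of poor carbon sources. They lay above for 15.3% of all ORFs, for 46 of 105 ribosomal protein genes, 10 of 21 ergosterol genes and 7 of 12 sulphur genes. YPS1, a cell surface protease, had -2.01 and -1.96 after 10 h against 1.02 and 0.65 after 4 h. PGM2, named above, had 0.86 and 0.71 after 4 h, and BOP2 had -1.95 and -1.74 after 10 h against 0.39 and 0.52 after 4 h. HOM3 ran the other way, with 1.18 and 1.45 after 10 h and -0.97 and -0.41 after 4 h. The difference between the times was not tested.

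In the tet strain the same 10 h of doxycycline also shut HCM1 off, so strain and HCM1 differ together between these comparisons. Over the 2207 ORFs with values in both strains the ratios were unrelated across genes (r = -0.03, rho = -0.05, ORFs not being independent). Of the 64 ORFs called higher in the tagged strain with tet values, 19 were above 0 and 16 below 0 on both tet arrays, and 0 were past 2-fold. Of the 113 called lower, 55 were below 0 and 39 above 0 on both tet arrays, and 10 were past 2-fold lower. Of all 2207 ORFs 34.7% were above 0 and 41.4% below 0 on both tet arrays, and 110 were past 2-fold lower. HSP26 was low in both strains, at -3.08 and -3.20 in the tagged strain and -3.43 and -4.05 in the tet strain. The general stress median was -1.49 in the tagged strain and -0.61 in the tet strain (25 ORFs), and that of ribosomal proteins 1.05 and 0.13 (117 ORFs). The ergosterol median was 0.43 in the tagged strain and 0.54 in the tet strain. KGD1 and STI1 were at opposite ends: KGD1 had -1.32 and -1.42 in the tagged strain and 2.58 and 2.92 in the tet strain, and STI1 had 1.28 and 1.20 in the tet strain.

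**Figure D5:**
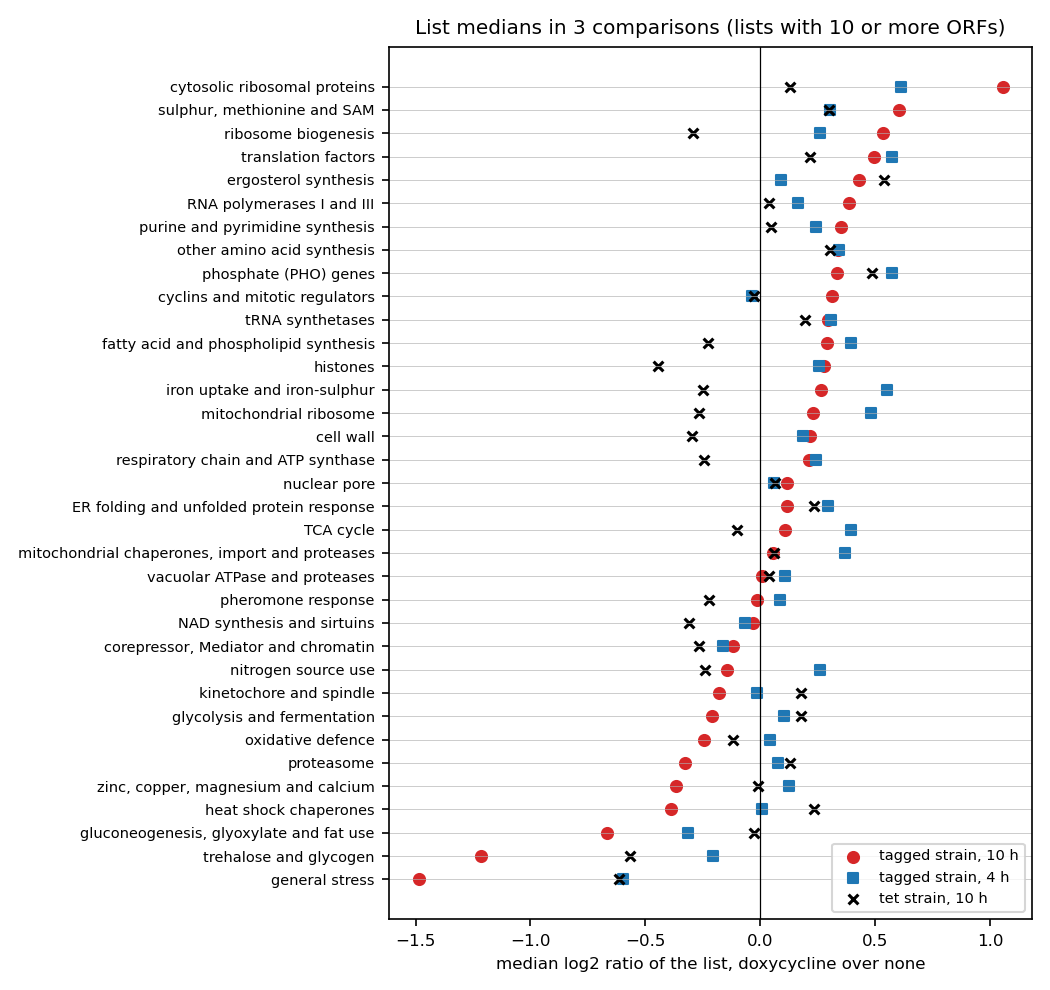
Median log2 ratio of doxycycline over none (horizontal axis) for the 35 gene lists with at least 10 measured ORFs, in the tagged strain after 10 h (red circles), the tagged strain after 4 h (blue squares) and the tet strain after 10 h (black crosses). General stress, trehalose and ribosomal protein genes lie furthest from 0 in the tagged strain after 10 h, and the 4 h and 10 h medians share untreated RNA.

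Ratios were also set against gene length and chromosome. Across 2233 ORFs with an annotated length Spearman's rho with the mean ratio was -0.16, from -0.21 on array 1 and -0.07 on array 2. With ORFs ordered by length in 4 equal groups, the shortest group had a median of 0.20 and the longest -0.10. Chromosome medians lay between -0.25 on IX and 0.17 on X. The ORFs on which the 2 arrays differed most were RTS2 (3.65 and -3.04), FAA3 (6.14 and 0.47), AIM18 (-1.42 and 2.76), MRPS12 (3.12 and -0.65) and TVP38 (2.98 and -0.67). FAA3, a fatty acyl-CoA synthetase gene, had the smallest adjusted p of limma (1.74e-10) because that fit saw the mean of the arrays and not their gap, so its value rests on array 1 alone.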

How the data were processed

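The authors deposited normalized log2 ratios, 1 column per array. How they normalized them, on which array design and with which scanner software is not stated in the labels or the file. Per the labels' protocols, 8 µg of total RNA was labelled indirectly with Cy5 or Cy3, and each array's description gives the channel that holds the treated RNA. Raising 2 to the deposited values gave multiples of 0.001, within 6e-05 on the log2 scale, for 100% of values in 11 of the 12 columns. Read as natural logarithms, 14.2% to 17.5% of values in these columns did so. The first column of the tagged strain over wild type did so for 14.0% as log2. The 10 h columns held 2520 and 2609 values with medians of 0.05 and 0.08. The number of arrays limits the precision.

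Each column was centred on its median, the 2 dye orientations were averaged, and ORFs with both values were kept. Genes were named through the RefSeq gene table, which matched 2233 of the 2312 ORFs. Calls required at least 2-fold on both arrays. ORFs were also tested with limma 3.58.1 in R 4.3.3 (lmFit, eBayes, Benjamini-Hochberg over the 1644 ORFs tested), with the 4 h comparison and the first tagged over wild type column as residual. This design takes those comparisons as no change, although the 4 h comparison holds changes of its own. The design was also run on simulated data, but no outcome is given, so that run lends it no support. The other steps used Python 3.11.15 with pandas 2.3.3. The replicate number is the dye orientation in the labels. Deviations of same-numbered arrays from their comparison's mean correlated at 0.56 to 0.68 in all 10 pairs of the 5 comparisons without mirrored columns, so the numbers pair the arrays by dye, and the mean of 2 orientations cancels that shared part.

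Named ORFs are HCM1, the 20 highest and the 20 lowest by the smaller array ratio in size, up to 5 per list furthest from 0 with 1 sign on both arrays, the 8 with the largest gap to the 4 h arrays in each direction and the 5 with the largest gap between arrays. A few more, such as MSN2, MSN4, SSA1, PCK1 and YDL121C, were named after their values were seen. The members and the 47 lists, with 1569 genes, were chosen with earlier results of these data known. Promoter motifs were not analysed here, and no coordinates are printed because no genome build is given.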

Additional observations from a re-analysis of the deposited data

Results flagged for a closer look

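The items below lay on opposite sides of 0 after 10 h and after 4 h of doxycycline, on all 4 arrays of the tagged strain. The difference between the times was not tested, and both comparisons have untreated tagged-strain RNA below the line. Differences are mean log2 ratios after 10 h minus those after 4 h.

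Of genes lower after 10 h and higher after 4 h, YPS1 differed by -2.82, PGM2 by -2.57, BOP2 by -2.30, CIT2 by -2.22, GSY1 by -2.14 and HXT2 by -2.00. PUT1 differed by -1.94, PHO89 by -1.86 and CMK2, a calmodulin-dependent kinase gene, by -1.74. GPD1 and UBI4, the polyubiquitin gene, each differed by -1.56. HSP78 and RPN2 each differed by -1.20, LSC2, a succinyl-CoA ligase subunit gene, by -0.998, and MSG5, a phosphatase gene of the pheromone pathway, by -0.70. RTG2 differed by -0.67, RNR4, a ribonucleotide reductase subunit gene, by -0.59, SEC13, a coat and nuclear pore gene, by -0.38, and RPD3, a histone deacetylase gene, by -0.33.

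In the other direction FAA3 differed by 3.34, of which array 1 gave most. HOM3 differed by 2.00, SRP40, a nucleolar protein gene, by 1.71 and URH1, a nucleosidase gene, by 0.49.

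Of the lists, with medians taken over ORFs with all 4 values, retrograde response differed by -1.40 (4 ORFs) and the proteasome by -0.42 (28 ORFs). Nitrogen source use differed by -0.39 (15 ORFs), and zinc, copper, magnesium and calcium genes by -0.36 (11 ORFs).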

How the results depend on the processing

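The 65 ORFs called higher became 197 with ORFs measured on at least 1 array, 163 on the mean of the 2 arrays, 239 at 1.5-fold and 10 at 3-fold, and 123 to 259 on 1 array alone. The 154 called lower became 232, 208, 281 and 69 under the same settings and 224 to 257 on 1 array alone. The values as deposited gave 94 and 138, equal scaling of the arrays 87 and 154, and removal of the length trend 59 and 146. Leaving out the ORFs that follow YMR051C, a choice made after seeing the data, gave 142 lower. The 178 ORFs past limma became 100 without the tagged over wild type comparison, 356 without the 4 h comparison, 10 with the mirrored columns averaged, 859 with arrays as replicates and 1368 with arrays as replicates and the replicate block. The values as deposited gave 159 and a robust fit 190.

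List medians reversed in 17 cases under 6 alternatives. Leaving out 1 array put these medians on both sides of 0: citric acid cycle -0.00445 to 0.166, mitochondrial chaperones -0.0554 to 0.126, sterol uptake -0.036 to 0.246, glycolysis -0.593 to 0.127, hexose transport -0.256 to 0.0407, drug efflux -0.0586 to 0.321, nuclear pore -0.0396 to 0.1004, cell wall -0.171 to 0.352, NAD synthesis -0.0966 to 0.0902, vacuole -0.145 to 0.0139 and corepressors -0.318 to 0.0175. The values as deposited gave 0.0476 for pheromone response and 0.0325 for NAD synthesis, equal scaling 0.00182 for pheromone response, and ORFs measured on at least 1 array -0.0668 for drug efflux. Removal of the length trend gave -0.0171 for mitochondrial chaperones and 0.0168 for pheromone response. The cause was not tested. The named ORFs called on both arrays have 1 sign on both by the call rule. Of those not called, RTS2, AIM18, MRPS12 and TVP38 turned sign with 1 array left out.

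With 1 RNA pair, the spread between cultures is unknown. Why 3357 ORFs have no value on either array was not tested, as no intensities were used. The promoter motifs planned were not run.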
